A study of Mus musculus with 6 samples.

Results

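The 6 genes described here encode effector cytokines of T cells, innate lymphoid cells, mast cells and basophils, and they are Ifng, Il17a, Il4, Il5, Il13 and Il10. They were taken by symbol from a table of 20394 genes and 32953 cells, in which all 6 were found. The cells were sorted for the leukocyte protein CD45 from the digested synovium of C57BL/6J mice with antigen-induced arthritis (AIA), in which mice bought as males at 8 weeks of age were immunized with 10 μg methylated bovine serum albumin in complete Freund's adjuvant and received 100 μg of the same antigen in the knee on day 21. Both groups shared this immunization and challenge, and synovium was taken on day 3 after it. From day 21 the PBS group (2 samples) was given vehicle and the PEPITEM group (4 samples) 300 μg of the peptide PEPITEM, both into the peritoneum, and each sample is 1 library of single cells counted from the 3′ ends of RNA. The deposited table pools the samples, and no label used here states which barcode number belongs to which sample. PBS and PEPITEM were therefore not compared, the 6 barcode numbers served as libraries of unknown treatment, and no test was run between them because they are not replicates of 1 group.

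Naive lymphocytes make little of these cytokines, and activated ones are known for making them in characteristic sets. Interferon gamma (Ifng), the cytokine of type 1 responses, is made by NK cells and T cells under T-bet (Tbx21) and activates macrophages. Interleukin-17A (Il17a) acts on fibroblasts and neutrophil recruitment, and γδ T cells and Th17 cells are known sources of it in inflamed joints. Interleukins 4, 5 and 13 are the type 2 cytokines made under GATA factors, of which interleukin-5 acts on eosinophils and interleukins 4 and 13 share a receptor chain. Interleukin-10 (Il10) restrains macrophages and is made by many leukocytes.

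Each cell was placed in the class with the most detected genes among 8 markers per class, with at least 3 of them detected and no tie, and none of the 6 cytokines is a marker. T cell-like cells were split by their UMIs (unique molecular identifiers, each the count of 1 captured RNA molecule) of Foxp3, Cd8a, Cd8b1, Cd4 and the constant regions of the γδ receptor. The names describe these markers and not sorted cells. Among the classes that could make these cytokines there were 1078 T cell-like cells, of which 201 were Cd4 T-like, 285 Cd8 T-like, 121 Foxp3 T-like, 229 γδ type T-like and 242 none of these. The last group, called other T-like, is the remainder and also takes cells with UMIs of both Cd4 and Cd8. Cd4 was found in 53.7% of Foxp3 T-like cells, so Cd4 T cells without a captured Cd4 UMI may lie outside the Cd4 gate. How many do was not tested. There were 313 NK-like cells, 138 type 2 innate lymphoid cell (ILC2)-like cells, 179 mast cell-like cells and 44 basophil-like cells. Of the gate markers, Cd3d was found in 98.0% of Cd4 T-like, Ncr1 in 86.3% of NK-like and Gata3 in 93.5% of ILC2-like cells. Mcpt4 was found in 99.4% of mast cell-like and Mcpt8 in 81.8% of basophil-like cells. These shares follow in part from the gating and do not test the names. In ILC2-like cells the marker Il17rb was found in 37.0%, and the median was 5 of 8 markers. Many cells also carried at least 3 markers of a second class, namely 117 of 201 Cd4 T-like, 146 of 313 NK-like, 47 of 138 ILC2-like, 173 of 179 mast cell-like and 23 of 44 basophil-like cells. So did 104 of 121 Foxp3 T-like, 3492 of 4285 macrophage-like, 4159 of 4829 monocyte-like and 324 of 399 stem and progenitor-like cells. The monocyte and macrophage gates share the marker Csf1r. The mast cell and basophil gates share the marker Hdc, and the genes of T cells overlap with those of NK cells and of ILC2. The basophil gate marker Gata2 was found in 84.9% of mast cell-like cells. Ms4a2, another marker of that gate, was found in 83.2% of mast cell-like cells with Il4 and 74.1% of those without. Leaving out cells with a second class thus removes mast cell-like cells that carry such shared genes. The ILC2 markers Gata3, Rora and Icos were found in 49.8%, 89.1% and 87.1% of Cd4 T-like cells. The part of these overlaps in the levels was not tested. Levels without cells that carry a second class are given where they move by over 1.5 times or change the order. Together the T, NK, ILC2, mast cell and basophil gates, 9 in all, held 1752 cells, 5.32% of all cells and 3.61% of all UMIs.

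The libraries held 2919 to 9345 cells and 47273569 to 123367661 UMIs, with a median of 11376 UMIs per cell over all cells. Median depth in the gates ran from 4357 UMIs per cell in mast cell-like cells to 10573 in Cd8 T-like cells. Of the barcode sequences, 138 occurred in more than 1 library, and 10 of the 276 cells that carry them were in the 9 gates. Levels are UMIs of the gene per 1000000 UMIs of the class (CPM) with an exact Poisson 95% interval, and shares of positive cells (cells with at least 1 UMI) carry an exact binomial 95% interval. Both cover counting error only, and neither covers the spread between mice. The Poisson interval also leaves out how unevenly the UMIs are spread over cells. Where no UMI was found, the limit given is the share or level that 3 counts would make, which lies below the upper bound of the exact interval, as for 44 cells with 6.82% against 8.04%.

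Of the 6 genes, 5 had most of their UMIs in the 9 gates, and Il10 did not. The share was 85.2% of 1829 UMIs for Ifng, 91.6% of 1299 for Il17a, 87.2% of 1441 for Il4, 96.2% of 849 for Il5 and 91.7% of 1562 for Il13. For Il10 it was 1.83% of 3763 UMIs, and its UMIs lay mostly in macrophage-like cells (45.2%), in cells that no gate took (21.7%) and in monocyte-like cells (14.6%). As a background, 1.84% of the 16707 genes with at least 50 UMIs had at least 50% of their UMIs in these gates. Neutrophil-like cells, which are not a textbook source of the 5 lymphoid cytokines, served as the background for shares of positive cells at a median depth of 7783 UMIs. In them 0.0806% of 11166 cells had a UMI of Ifng, 0.0537% of Il17a, 0.0717% of Il4 and 0.0985% of Il13, and 1 cell had a UMI of Il5.

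**Figure D1:**
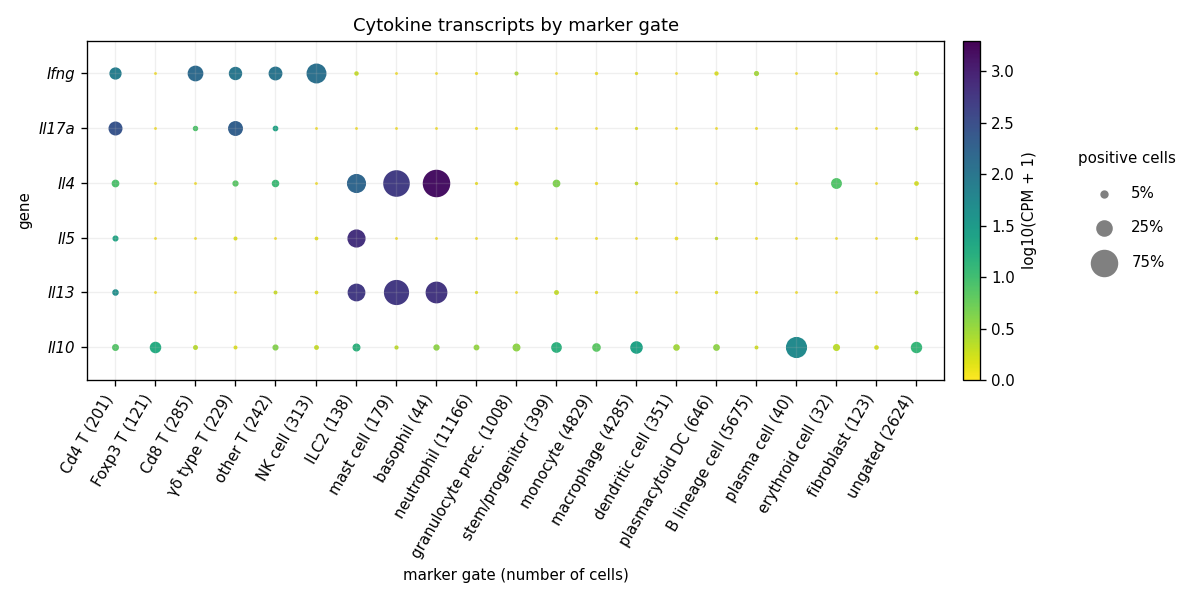
Level and detection of the 6 cytokine genes in each marker gate of at least 30 cells and in cells no gate took. The vertical axis gives the gene and the horizontal axis the gate with its number of cells, the area of a point is the percent of positive cells and its color is log10(CPM + 1). Ifng lies over the T and NK gates, Il17a over the Cd4 and γδ type T gates, Il5 over the ILC2 gate, Il4 and Il13 over the ILC2, mast cell and basophil gates, and Il10 over most gates.

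Il4, Il13 and Il5 are neighbors on chromosome 11, and their levels were not alike, so the sequence before each start is shown here. In the GENCODE M21 annotation of GRCm38 (mm10), Il4 spans chr11:53602982-53618669 on the minus strand, Il13 spans chr11:53631324-53634702 on the minus strand and Il5 spans chr11:53720794-53725106 on the plus strand. Between Il4 and Il13 there are 12654 bases, and between Il13 and Il5 there are 86091 bases, which hold the DNA repair gene Rad50. The 250 bases before a start site, from RefSeq (GRCm38.p6), were searched on both strands for AGATAA, for AGATAG, for TGATAA and for TGATAG, the spellings that GATA factors prefer, and 26.5% of 32851 promoter windows of this length hold at least 1 of them. Capitals mark a match, and each line reads 5′ to 3′ on the strand of the gene.
Il4 (chr11:53618666-53618915, minus strand): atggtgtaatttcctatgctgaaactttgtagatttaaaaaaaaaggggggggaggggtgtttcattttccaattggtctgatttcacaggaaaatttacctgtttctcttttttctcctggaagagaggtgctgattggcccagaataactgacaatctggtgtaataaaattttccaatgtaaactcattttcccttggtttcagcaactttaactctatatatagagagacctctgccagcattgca
Il13 (chr11:53634703-53634952, minus strand): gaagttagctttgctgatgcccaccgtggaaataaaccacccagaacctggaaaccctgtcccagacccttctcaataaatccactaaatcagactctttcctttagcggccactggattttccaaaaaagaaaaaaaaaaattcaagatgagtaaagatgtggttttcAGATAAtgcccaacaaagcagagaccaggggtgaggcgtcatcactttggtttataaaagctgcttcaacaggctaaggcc
Il5 (chr11:53720544-53720793, plus strand): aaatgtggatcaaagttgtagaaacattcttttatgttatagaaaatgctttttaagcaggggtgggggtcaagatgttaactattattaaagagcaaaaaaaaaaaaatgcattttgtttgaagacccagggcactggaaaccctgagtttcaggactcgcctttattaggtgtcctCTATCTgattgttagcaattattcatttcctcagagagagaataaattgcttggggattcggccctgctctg
The window of Il13 holds 1 match that begins 81 bases before the start, and the window of Il5 holds 1 match on the opposite strand that begins 72 bases before it. The table has 2 windows for Il4, and the one shown, which lies before the outermost start, holds none of these spellings. The other, at chr11:53617339-53617588, holds 1 match that begins 80 bases before its start. A match is a run of letters and not a site shown to be bound. Ifng lies at chr10:118441046-118445892, Il17a at chr1:20730905-20734496 and Il10 at chr1:131019845-131024974, each on the plus strand.

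Ifng was found in NK-like cells and in every T cell-like gate but the Foxp3 gate. By level, Cd8 T-like cells came first with 144 CPM (interval 132 to 158), followed by NK-like cells with 120 CPM (108 to 132), other T-like cells with 102 CPM, γδ type T-like cells with 95.8 CPM and Cd4 T-like cells with 78.5 CPM (67.4 to 91.0). The intervals of neighbors in this order overlapped, and so did their ranges over the libraries. The next gate, B lineage-like cells, stood at 1.78 CPM. By detection the order was another, as 37.4% of NK-like cells (117 of 313, interval 32% to 43.0%) had a UMI of Ifng against 22.1% of Cd8 T-like cells (63 of 285, interval 17.4% to 27.4%). NK-like cells had the larger share of positive cells in 6 of 6 libraries, while Cd8 T-like cells had the higher level in 3 of 6. Over the libraries Ifng ranged from 82.4 to 236 CPM in NK-like cells (median 103) and from 6.46 to 304 CPM in Cd8 T-like cells (median 126). The share of Ifng-positive cells ranged over the libraries from 26.9% to 51.2% of NK-like cells and from 6.98% to 30.0% of Cd8 T-like cells. Without library 1 Cd8 T-like cells stood at 112 CPM and other T-like cells led by level. NK-like cells led by level without library 2, and also, with Cd8 T-like cells at 125.5 CPM, without cells that carry markers of a second class.

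The difference between level and detection lay in how many UMIs a positive cell held. A positive NK-like cell held a median of 1 UMI of Ifng, and 61 of 117 held exactly 1. Positive Cd8 T-like cells held a median of 2, up to 80 in 1 cell, and 12 of 63 cells held 10 or more and 69.0% of the Ifng UMIs of the class. In NK-like cells 6 of 117 cells held 10 or more, with 37.3% of the UMIs. No UMI of Ifng was found in 121 Foxp3 T-like, 179 mast cell-like or 44 basophil-like cells, which allows shares of up to 2.48%, 1.68% and 6.82%.

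Among Cd8 T-like cells, those with Ifng carried Tbx21, Il18rap, Il12rb2 and Tnf more often. Tbx21, the T-bet gene, was found in 79.4% of 63 Ifng-positive and 38.7% of 222 Ifng-negative cells, higher in 6 of 6 libraries, at median depths of 10719 and 10515 UMIs. Il18rap, a chain of the interleukin-18 receptor, was found in 69.8% and 41.0% (higher in 5 of 6 libraries), Il12rb2 of the interleukin-12 receptor in 61.9% and 43.7% (6 of 6), and Tnf in 44.4% and 17.6%. In NK-like cells detection was high in both sets, with Tbx21 in 85.5% of 117 Ifng-positive and 80.6% of 196 Ifng-negative cells (higher in 4 of 6 libraries) and Il18rap in 88.0% and 85.2% (3 of 6). The level of Tbx21 was 364 CPM in the positive and 258 CPM in the negative NK-like cells, and that of Il18rap 400.2 and 305 CPM. Of 11 transcription factors on the list, 8 were more frequent in the Ifng-positive cells of either class, where 54.6% of all genes found in at least 10 cells were so in Cd8 T-like and 59.3% in NK-like cells. In Cd8 T-like cells 3 of 7 other listed effector cytokines and 6 of 12 listed receptors for inducing signals were more frequent with Ifng. Il7r went the other way, with 38.1% against 60.4%. In NK-like cells these counts were 4 of 7 and 6 of 12. Cells of 1 library are not replicates, and these shares carry no test.

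Il17a was carried by Cd4 T-like and γδ type T-like cells. Its level was 268 CPM in Cd4 T-like cells (interval 247 to 290) and 198 CPM in γδ type T-like cells (181 to 216), then 22.5 CPM in other T-like and 7.24 CPM in Cd8 T-like cells. The intervals of the first 2 do not overlap, but their library ranges do, from 14.0 to 429 CPM (median 222) and from 25.6 to 508 CPM (median 152), and Cd4 T-like cells were higher in 4 of 6 libraries. Library 6 was lowest in Cd4 T-like cells, with 3 UMIs in 1 cell, and library 2 was lowest in γδ type T-like cells. The share of positive cells was 16.9% of Cd4 T-like cells (34 of 201, interval 12.0% to 22.8%) and 19.7% of γδ type T-like cells (45 of 229, interval 14.7% to 25.4%), and these intervals overlap. No UMI was found in 313 NK-like cells (up to 0.958%), 138 ILC2-like cells (up to 2.17%) or 121 Foxp3 T-like cells (up to 2.48%).

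The Il17a UMIs were held by few cells. In Cd4 T-like cells 4 of the 34 positive cells held at least 50% of the UMIs and 1 held 150 of 604. In γδ type T-like cells the same count was 4 of 45, and 1 cell held 165 of 504 UMIs. Without its highest cell, the Cd4 T-like level was 203 CPM. Without cells that carry at least 3 markers of a second class, with NK cell markers not counted against T cells, the Cd4 T-like level was 152 CPM and the share 11.6% of 86 cells. ILC2 markers were still counted against T cells. Of these, Rora was found in 100% of Il17a-positive and 86.8% of Il17a-negative Cd4 T-like cells, and Icos in 94.1% and 85.6%. Cd4 T-like cells led by level with at least 2 or 4 markers, without cells of a second class and without each library in turn. By detection γδ type T-like cells led in these settings, except without library 3, where Cd4 T-like cells did. The leading gate in the other settings is not given here.

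**Figure D2:**
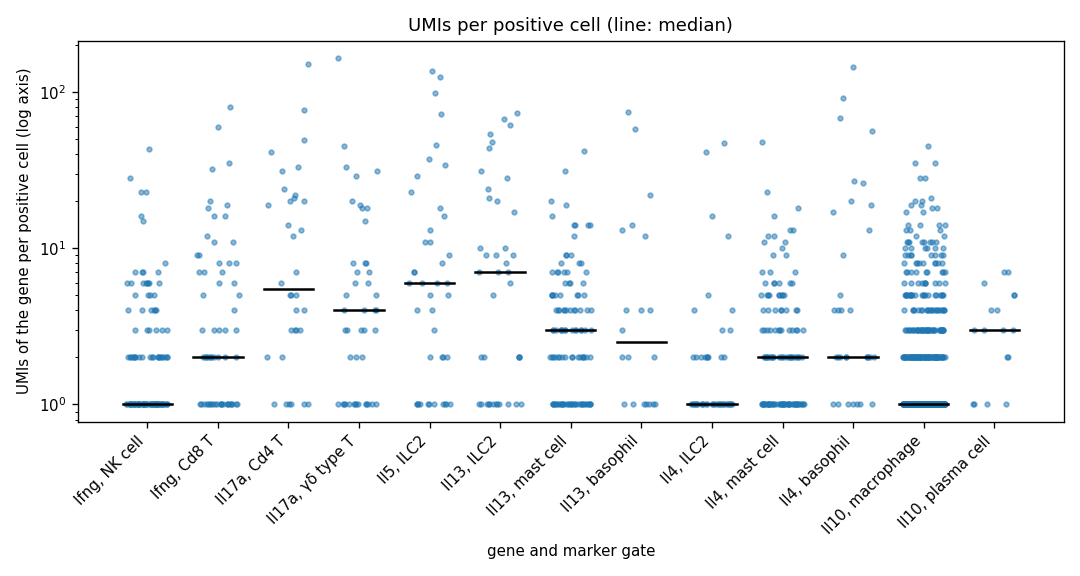
UMIs of a cytokine gene in each positive cell, on a log axis, for 13 pairs of gene and marker gate. Each point is a cell and the line is the median. The medians lie between 1 and 7 UMIs, while single cells reach 165 UMIs of Il17a in γδ type T-like cells, 145 UMIs of Il4 in basophil-like cells and 137 UMIs of Il5 in ILC2-like cells.

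γδ type T-like cells with Il17a and those with Ifng did not overlap, as 0 of 45 and 0 of 35 cells carried the other cytokine. The exact upper bounds of these shares are 7.87% and 10.0%. In the rest of the gate, Ifng was found in 19.0% of 184 Il17a-negative cells and Il17a in 23.2% of 194 Ifng-negative cells. In Cd4 T-like cells 5 of the 34 Il17a-positive cells also had Ifng (14.7%), against 12.0% of Il17a-negative cells, and these were all 5 such cells among the T cell-like cells. All 7 genes of a list for the Il17a type of γδ T cell were more frequent in Il17a-positive than in Il17a-negative γδ type T-like cells, with a median difference of 48.24 percentage points, while 40.0% of 9457 genes were more frequent with a median of -1.93. Il23r, the receptor for interleukin-23, which maintains these cells, was found in 95.6% of 45 positive and 30.4% of 184 negative cells. The kinase gene Blk was found in 91.1% and 29.9%, the interleukin-1 receptor gene Il1r1 in 86.7% and 28.8%, the scavenger receptor gene Cd163l1 in 68.9% and 20.7%, and Sox13 in 46.7% and 9.24%. Each of these 5 genes was more frequent in the Il17a-positive cells of 6 of 6 libraries, and the positive cells were the less deeply sequenced ones, at a median of 8852 against 10358 UMIs. Of the remaining 2, Maf was higher in 5 and Ccr6 in 4 of 6 libraries.

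The Ifng-positive γδ type T-like cells carried another set of genes. In 35 such cells Il23r, Blk, Il1r1, Cd163l1, Sox13 and Ccr6 were each found in 0 cells, and Maf in 37.1%. The exact upper bound for 0 of 35 cells is 10.0%. In the 194 Ifng-negative cells these 6 genes were found in 10.8% (Ccr6) to 51.0% (Il23r), and Maf in 58.8%. Of 9457 genes, 60.1% were more frequent in the Ifng-positive cells. Tbx21 was found in 80.0% of them and in 8.89% of the Il17a-positive cells, and Il12rb2 in 91.4% and 2.22%. Tbx21 and Il12rb2 were more frequent in Ifng-positive than in Ifng-negative cells in 6 of 6 libraries. Eomes, the T-box gene of NK cells and memory Cd8 T cells, was found in 0 of the 45 Il17a-positive cells. It was found in 31.4% of Ifng-positive and 20.6% of Ifng-negative cells, higher in 3 of 6 libraries. The gate rests on γδ receptor transcripts, and 8.73% of its cells also had a UMI of the NK marker Ncr1. Trdc was found in 48.6% of the Ifng-positive and 97.8% of the Il17a-positive cells, and Tcrg-C1 in 37.1% and 77.8%. Trac, a gene of the αβ receptor, was found in 42.8% of the gate. Whether the Ifng-positive cells are γδ T cells was not tested.

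**Figure D3:**
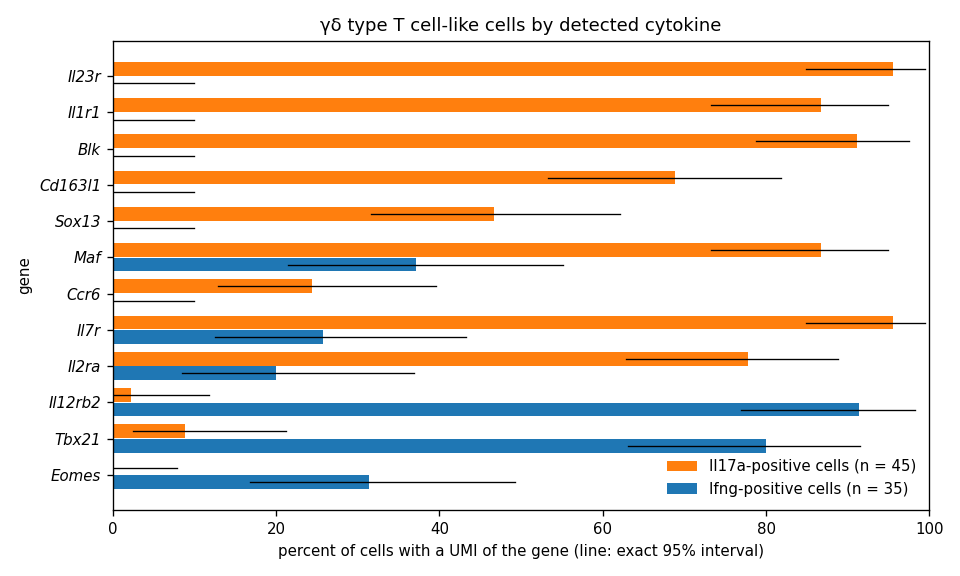
Percent of γδ type T-like cells with a UMI of each gene, for the 45 cells with Il17a (orange) and the 35 cells with Ifng (blue). Bars show the share over all libraries and lines the exact 95% interval. Il23r stands at 95.6% and 0%, and Tbx21 at 8.89% and 80.0%.

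In Cd4 T-like cells 6 of the 7 genes of that list were more frequent in the 34 Il17a-positive cells, where 73.1% of 9100 genes were so at a depth of 9502 against 7824 UMIs. The neighboring cytokine gene Il17f was found in 58.8% of Il17a-positive and 7.78% of Il17a-negative cells, Il1r1 in 82.4% and 31.7%, both higher in 6 of 6 libraries, and the chemokine receptor gene Ccr6 in 55.9% and 16.2% (4 of 6). Il17f was also the fixed-list cytokine nearest to Il17a by level over the gates, with 145 CPM in Cd4 T-like and 33.4 CPM in γδ type T-like cells. Il12rb2 was lower in the Il17a-positive cells of 6 of 6 libraries, with 8.82% against 23.4%.

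Most of the Il5 signal lay in ILC2-like cells, which held 90.2% of its UMIs. Its level there was 680 CPM (interval 633 to 730), and 30.4% of the cells were positive (42 of 138, interval 22.9% to 38.8%). Over the libraries Il5 ranged from 126 to 1353 CPM with a median of 528, and libraries 2, 3 and 4 were high at 871 to 1353 CPM while libraries 1, 5 and 6 were low at 126 to 184 CPM. In the same cells Il13 ranged from 399 to 790 CPM, and its order over the libraries was another, with library 5 lowest for Il5 and highest for Il13. Cd4 T-like cells came next for Il5 with 21.7 CPM from 4 cells, of which 3 were in library 5. No UMI of Il5 was found in 179 mast cell-like cells, which allows up to 1.68% of cells and 3.21 CPM, or in 44 basophil-like cells, which allows up to 6.82% and 8.07 CPM.

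Il13 was shared by 3 classes, whose pooled levels had overlapping intervals while the libraries differed. Its level over all libraries was 595 CPM in basophil-like cells (interval 519 to 678), 548 CPM in mast cell-like cells (502 to 598) and 530 CPM in ILC2-like cells (489 to 575). The medians over the libraries were 181, 554 and 478 CPM, and basophil-like cells lay above mast cell-like cells in 2 of 6 libraries and above ILC2-like cells in 1 of 6, while mast cell-like cells lay above ILC2-like cells in 3 of 6. Detection was not alike, at 62.0% of mast cell-like cells (111 of 179, interval 54.5% to 69.2%), 45.5% of basophil-like cells (20 of 44, interval 30.4% to 61.2%) and 29.0% of ILC2-like cells (40 of 138, interval 21.6% to 37.3%). Mast cell-like cells had a larger share of positive cells than ILC2-like cells in 6 of 6 libraries, at a lower depth, with a median of 4357 against 6823 UMIs per cell. A positive ILC2-like cell held a median of 7 UMIs of Il13 and a positive mast cell-like cell 3. The basophil-like level rested on library 5, where 5 cells gave 7039 CPM, and without that library it was 178 CPM. Without library 2, which held 17 of the 44 cells, it was 1110 CPM, and without cells that carry markers of a second class it was 935 CPM in 21 cells. The latter exclusion also took 173 of the 179 mast cell-like cells, and ILC2-like cells then led among gates of at least 30 cells. In mast cell-like cells the libraries ranged from 280 to 679 CPM and no library was without Il13. Cd4 T-like cells followed at 43.9 CPM, from 5 cells.

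Il4 was highest in basophil-like cells, at 1450 CPM (interval 1330 to 1578), then in mast cell-like cells at 509 CPM (464 to 557) and ILC2-like cells at 162 CPM (139 to 187). The 3 intervals do not overlap. Over the libraries Il4 ranged from 30.4 to 9075 CPM in basophil-like cells, whose number was 3 to 17 per library, and from 272 to 1096 CPM in mast cell-like cells, so that the 2 ranges overlap and basophil-like cells were higher in 4 of 6 libraries. Without library 5 the basophil-like level was 957 CPM, and without library 2 it was 2507 CPM. Without cells with at least 3 markers of a second class it was 2185 CPM in 21 cells. That exclusion also took 173 of the 179 mast cell-like cells, and ILC2-like cells then led among gates of at least 30 cells. Mast cell-like cells were above ILC2-like cells in 5 of 6 libraries by level and in 6 of 6 by detection. The share of positive cells was 75% of basophil-like (33 of 44), 69.8% of mast cell-like (125 of 179) and 34.1% of ILC2-like cells (47 of 138). T cell-like gates held little Il4, with 7.54 CPM in Cd4 T-like cells (8 of 201 cells), and none was found in 285 Cd8 T-like, 313 NK-like or 121 Foxp3 T-like cells.

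**Figure D4:**
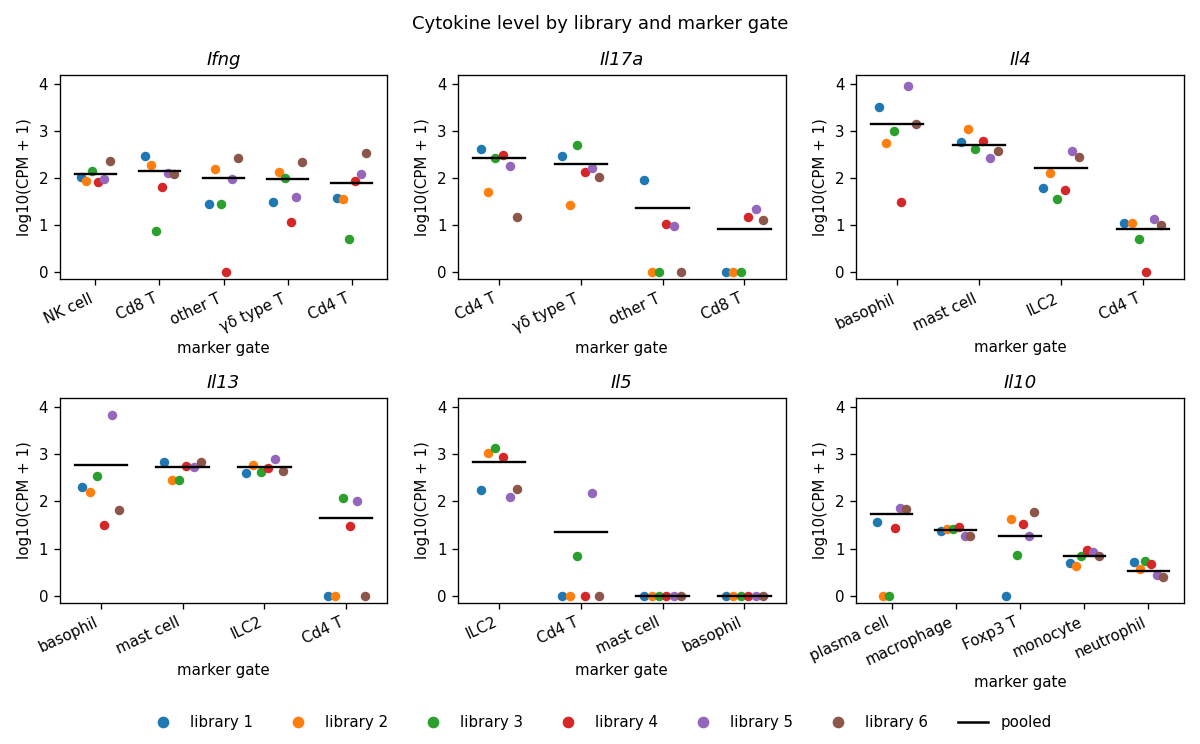
Level of each cytokine gene as log10(CPM + 1) in the marker gates that lead for it, by library. Each colored point is 1 of the 6 libraries, whose treatment is not known, and the black line is the level over all libraries. The black lines of Il13 lie at 530 to 595 CPM in basophil-like, mast cell-like and ILC2-like cells, but in basophil-like cells 5 of 6 libraries lie at 30.4 to 344 CPM and library 5 at 7039 CPM, and Il5 is at 0 in each library of the mast cell and basophil gates.

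The type 2 cytokines met in the same cells to different extents. Of 179 mast cell-like cells, 48.6% had both Il4 and Il13 and 16.8% had neither. Il13 was found in 69.6% of the 125 Il4-positive cells and 44.4% of the 54 Il4-negative cells, which had median depths of 4940 and 2587.5 UMIs. Of 44 basophil-like cells 40.9% had both, and Il4 was found in 18 of 20 Il13-positive cells (interval 68.3% to 98.8%) and 15 of 24 Il13-negative cells (40.6% to 81.2%), at median depths of 6056 and 5290.5 UMIs. These 2 intervals overlap. In ILC2-like cells 7.97% had all of Il4, Il5 and Il13, 39.9% had none of them, and 21 cells had Il4, 16 had Il5 and 11 had Il13 as the single type 2 cytokine. Il13 was found in 47.6% of 42 Il5-positive and 20.8% of 96 Il5-negative ILC2-like cells (5 of 6 libraries), where the positive cells were the deeper ones with 9115.5 against 6198.5 UMIs. Il4 was found in 50% of 40 Il13-positive and 27.6% of 98 Il13-negative cells (6 of 6 libraries), at 8379.5 and 6457.5 UMIs. The part of depth in these shares was not tested, and 83.5% of 7292 genes were more frequent in the Il5-positive cells.

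The few Cd4 T-like cells with Il4, Il5 or Il13 were described by Il1rl1, the receptor for interleukin-33, which also marks the ILC2 gate. Il1rl1 was found in 16 of 201 Cd4 T-like cells (7.96%). Of the 8 with Il4, 2 had Il1rl1, and these held 3 of 17 UMIs. Of the 4 with Il5, 2 had Il1rl1 and held 45 of 49 UMIs. Of the 5 with Il13, 3 had Il1rl1 and held 42 of 99 UMIs, and 1 other cell had Il17a and held 56. These cells were singled out after their values were seen.

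Il10 was the most widespread of the 6, with 1488 positive cells. Plasma cell-like cells had the highest pooled level, 52.7 CPM (interval 40.0 to 68.1), in 17 of 40 cells, of which 15 were in libraries 5 and 6. These libraries held 14 and 15 of the 40 cells, and each other library 1 to 5. Plasma cell-like cells lay above macrophage-like cells, which came next, in 3 of 6 libraries. Their median over the libraries was 30.7 CPM, which gives libraries of few cells the same weight. With each cell thinned to 2000 UMIs, Il10 was found in 10.3% of 39 plasma cell-like and 3.35% of 4181 macrophage-like cells. Without library 6 the plasma cell-like level was 42.1 CPM, and without library 5 or 6 under 30 of these cells were left, so that macrophage-like cells led among the ranked gates. With at least 3 markers of a second class as a reason to leave cells out, 9 cells were left at 98.8 CPM, and macrophage-like cells led again. Immunoglobulin genes made up 39.6% of the UMIs of these cells, and with those left out of the total the level was 87.2 CPM. Macrophage-like cells followed at 23.6 CPM (22.5 to 24.7), with 13.2% positive (567 of 4285), then Foxp3 T-like cells at 17.4 CPM (10.6 to 26.9), with 10.7% positive (13 of 121), and stem and progenitor-like cells at 14.7 CPM (12.2 to 17.6). The intervals from macrophage-like to ILC2-like cells (14.2 CPM) overlap for each pair of neighbors. Macrophage-like cells lay between 17.6 and 28.3 CPM in each library, above monocyte-like cells (5.94 CPM) and neutrophil-like cells (2.28 CPM) in 6 of 6 libraries by level and by detection. Neutrophil-like cells had a UMI of Il10 in 1.81% of cells and B lineage-like cells in 0.405% of 5675, at median depths of 7783 and 5767 UMIs. Il10 was the single one of the 6 genes found in Foxp3 T-like cells, and 11 of the 13 positive cells held 1 UMI.

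Within macrophage-like cells the level of Il10 was set beside genes of macrophage subtypes, chosen after values were seen. In the 2281 cells with a UMI of Ccr2, the chemokine receptor of recruited monocytes and a marker of the monocyte gate, it stood at 27.4 CPM (26.0 to 29.0), against 16.3 CPM (14.7 to 17.9) in the 2004 cells without, higher in 6 of 6 libraries. In the 1833 cells with Lyve1, a gene of resident macrophages, it stood at 17.4 CPM, against 27.3 CPM in the 2452 cells without, lower in 6 of 6 libraries. Vsig4, also a gene of resident macrophages, gave 14.5 and 25.4 CPM (lower in 6 of 6) and Timd4 15.7 and 25.4 CPM (lower in 5 of 6). Cd163 and Folr2 went the other way, with 26.1 against 22.4 CPM and 25.1 against 21.0 CPM, each higher in 4 of 6 libraries. Cells with the cell cycle gene Mki67 had 32.1 CPM against 21.8 CPM (higher in 6 of 6). Arg1 gave 20.9 and 24.5 CPM.

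The cytokine genes whose role is nearest to these 6 were taken as a list, and 7 of its 10 members were in the table. All 7 had their highest level in 1 of the 9 gates, where 30.5% of the 16707 genes with at least 50 UMIs led, and 5 had at least 50% of their UMIs there, against the 1.84% of these genes given above. Il17f, Il22, Il2 and lymphotoxin alpha (Lta) led in Cd4 T-like cells with 145, 30.6, 120 and 151 CPM. Areg, the epidermal growth factor ligand of tissue repair, and Csf2, the granulocyte-macrophage growth factor, led in ILC2-like cells with 1055 and 246 CPM. Tnf led in mast cell-like cells with 404 CPM, but 4.48% of its UMIs lay in the 9 gates. By the likeness of log2(CPM + 1) over the 20 gates of at least 30 cells, the nearest of 16561 genes to Il17a was Il17f (Pearson r = 0.971), to Ifng Gm28960 (0.984), then Klrc1 (0.970) and Klrc2 (0.969), receptors of NK cells, and to Il5 Gm44079 (0.938) and Ccdc184 (0.919). Samd13 (0.909) and Pomgnt1 (0.899) were nearest to Il4, and Samd13 (0.862) and the chemokine gene Ccl1 (0.842) to Il13. For Il10 no gene came above 0.739 (Klhl41 and Txlnb). Gates share libraries, so these values describe likeness and carry no p.

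Of the receptor chains of the 6 cytokines, 0 of 12 had at least 50% of their UMIs in the 9 gates. Among the 16707 genes with at least 50 UMIs, 1.84% did so, which is too few for 0 of 12 to set the chains apart. Il13ra2, counted among the 12, had under 50 UMIs. The median share over the chains was 2.49%. Ifngr1, the ligand-binding chain for interferon gamma, was highest in NK-like cells (879 CPM) and Foxp3 T-like cells (853 CPM), and its partner Ifngr2 in monocyte-like cells (135 CPM, 126 to 138 over the libraries) and macrophage-like cells (119 CPM). Il17ra was found in 76.7% of monocyte-like cells at 117 CPM and in 53.8% of neutrophil-like cells at 87.3 CPM, while its partner Il17rc was highest in fibroblast-like cells at 12.1 CPM. Il13ra1 was highest in fibroblast-like (129 CPM) and macrophage-like cells (79.6 CPM), and Il4ra reached 138 CPM in Foxp3 T-like and 126 CPM in macrophage-like cells. Il5ra was led by plasma cell-like (40.9 CPM), B lineage-like (23.0 CPM) and mast cell-like cells (18.2 CPM). Il10ra was highest in mast cell-like cells at 246 CPM (158 to 308), then ILC2-like cells at 136 CPM and macrophage-like cells at 98.4 CPM, and Il10rb in macrophage-like cells at 128 CPM. Il13ra2, the decoy receptor, had 3 UMIs in all, in fibroblast-like cells. The sort kept CD45-positive cells, so the 123 fibroblast-like cells do not stand for the fibroblasts of the joint.

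**Figure D5:**
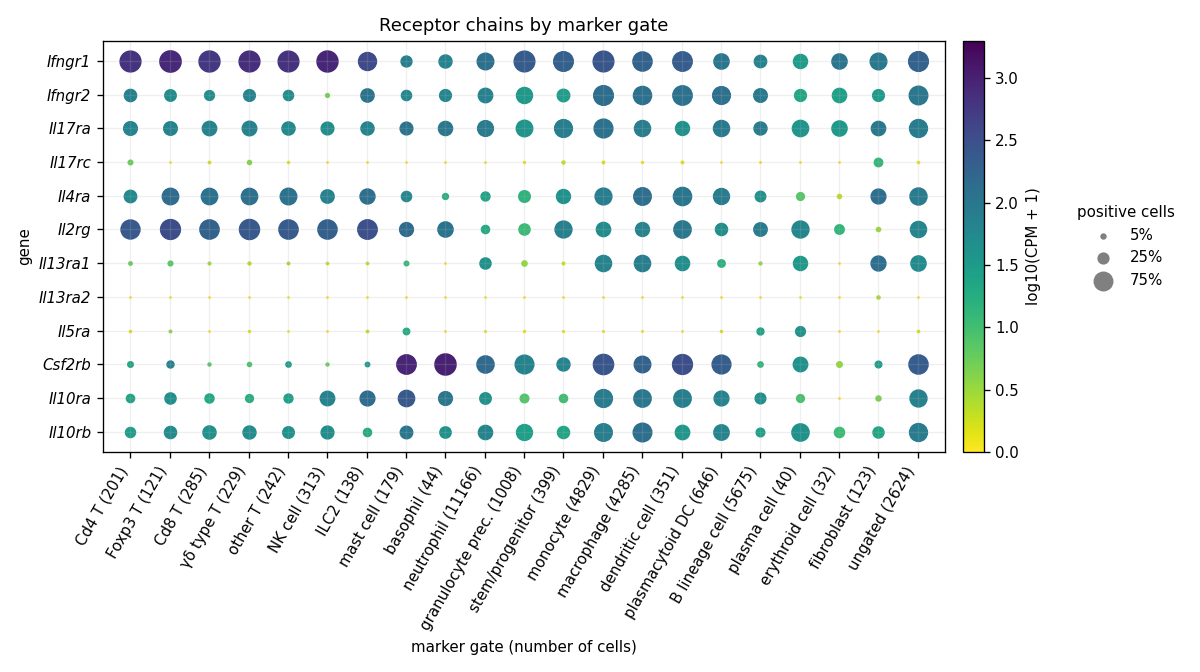
Receptor chains of the 6 cytokines in each marker gate of at least 30 cells and in cells no gate took. The vertical axis gives the gene and the horizontal axis the gate with its number of cells, the area of a point is the percent of positive cells and its color is log10(CPM + 1). Ifngr1 is strongest over the T and NK gates (879 CPM in NK-like cells), Csf2rb over mast cell-like and basophil-like cells (906 and 987 CPM), and Il13ra2 is close to empty.

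The signals that induce the 6 cytokines were measured from both sides. Il12rb2 was highest in NK-like cells (484 CPM) and γδ type T-like cells (194 CPM), and Il18rap in basophil-like (611 CPM) and NK-like cells (342 CPM). Il23r stood at 445 CPM in γδ type T-like cells, 157 CPM in other T-like cells and 130 CPM in Cd4 T-like cells, and was found in 0 of the ILC2-like, mast cell-like and basophil-like cells. Il1rl1 reached 1658 CPM in mast cell-like cells, where it is not a marker of the gate, and 1266 CPM in ILC2-like cells, where it is. On the side of the ligands, Il12b was highest in dendritic cell-like cells (163 CPM, 38.1 to 326 over the libraries), with 44 of 351 cells positive. Il12a was highest in plasmacytoid dendritic cell-like cells (121 CPM, 1060 UMIs). B lineage-like cells held 3685 UMIs of Il12a, at 86.4 CPM and in 34.5% of cells. Il1b was highest in basophil-like cells (7192 CPM), then in dendritic cell-like (2566 CPM) and neutrophil-like cells (2287 CPM). Il18 was found in 30.8% of monocyte-like and 29.1% of macrophage-like cells, at 26.3 and 25.8 CPM. Il33, the ligand of Il1rl1, had its highest level in fibroblast-like cells, at 35.7 CPM (0 to 175 over the libraries). These cells held 68 of its 251 UMIs, and B lineage-like cells held 94, at 2.2 CPM. Il23a had 467 UMIs in all. It was highest in basophil-like cells, at 24.2 CPM from 2 cells, and neutrophil-like cells had 1.5 CPM, with 0.171 to 12.0 CPM over the libraries. Of the transcription factors, 10 of 11 had their highest level in 1 of the 9 gates, against 30.5% of genes. At least 50% of their UMIs lay there for 4 of 11, with a median share of 14.99%. Eomes, Gata3 and Rora, each with at least 50%, and Gata2 are markers of these gates. Their places there follow in part from the gating, so the counts are no independent result. Tbx21 was highest at 299 CPM in NK-like cells.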

How the data were processed

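Per the labels and the study's methods, the authors prepared single-cell 3′ libraries, aligned reads to mm10 with Cell Ranger 7, removed ambient RNA with SoupX and doublets with DoubletFinder, and deposited 1 matrix of whole UMI counts, not scaled for depth. Whether intronic reads were counted is not given in the sources used here. The matrix stores 1724738 entries as 0, of which 3 to 57 belong to each of the 6 genes, and these were read as 0. The number at the end of a barcode (1 to 6) gave the library. No doublet caller was run. From the counts, CPM, shares of positive cells and gates (8 markers per class, at least 3 detected, ties left ungated) were computed with Python 3.11.15, numpy 2.4.6, scipy 1.17.1 and pandas 2.3.3. γδ type T-like cells needed 2 UMIs of Trdc or Tcrg constant regions and none of Cd4, Cd8 or Foxp3. Gates under 30 cells were not ranked, and 2624 cells (7.96%) stayed ungated. Total depth was 47273569 to 123367661 UMIs per library. The planned test between PBS and PEPITEM was not run. The genes described are the 6 cytokines in every gate, fixed lists (cytokines, receptors, transcription factors, inducing signals), and for each cytokine the 3 genes most alike over gates among genes with at least 50 UMIs, members and markers left out. That search was tested on simulated data, with planted genes set above the level of each cytokine and no pass required for Il10. The test therefore does not cover genes with few UMIs, such as some of those found, or the genes nearest to Il10. Of the lists, Il3, Il9, Il21 and Il25 were not analysed here. One further gene of the lists is not reported here and was left out of their counts. The genes that split macrophage-like cells and 3 of the alternative settings were chosen after seeing the data, and all members and lists were chosen with earlier results of these data known. Sequences came from RefSeq and positions from GENCODE M21, both GRCm38. Alternatives were 2 or 4 markers, cells with a second class left out, thinning to 2000 UMIs with a fixed seed, stored 0 entries as positive, the mean of the CPM of each cell and each library left out.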

Additional observations from a re-analysis of the deposited data

Results flagged for a closer look

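Cells that no gate took were outside every comparison above, and each of the 6 genes had UMIs in them. There were 96 UMIs of Ifng in 24 cells, 75 of Il17a in 9 cells, 39 of Il4 in 23 cells, 17 of Il5 in 5 cells, 60 of Il13 in 10 cells and 816 of Il10 in 276 cells. Most of these cells were tied between classes rather than short of markers, namely 19 of the 24 cells with Ifng and 272 of the 276 cells with Il10. For Il17a, 67 of the 75 UMIs lay in cells tied with one of the T, NK, ILC2, mast cell or basophil gates, and 1 cell held 65. For Il10, 10 of the 816 UMIs lay in such cells, and the positive cells had a median of 33715 UMIs.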

How the results depend on the processing

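No paired analysis was possible because no source used here links the barcode numbers to samples. Each of 18 values (percent positive and CPM in the leading gate, and share of UMIs in the 9 gates) stayed within its counting interval with at least 2 or at least 4 markers, as did 6 of 6 with entries stored as 0 counted as positive. Without cells with 3 markers of a second class, 11 of 18 left it: Ifng 125.5 CPM, Il17a 11.63%, 152.3 CPM and a share of 78.24%, Il4 2185 CPM, Il5 471.1 CPM and 93.16%, Il13 935.1 CPM and 87.5%, and Il10 22.22% and 98.76 CPM. With cells thinned to 2000 UMIs (1 or 2 shallower cells left out per gate), positive cells were 11.62% for Ifng, 11.0% for Il17a, 58.14% for Il4, 19.12% for Il5, 20.93% for Il13 and 10.26% for Il10. The mean of the CPM of each cell was 233.4 for Il17a, 2059 for Il4, 370.8 for Il5, 873.3 for Il13 and 226.6 for Il10. Chosen after seeing the data, the level without the highest cell was 121.5 CPM for Ifng, 203.0 for Il17a, 1073 for Il4, 573.2 for Il5 and 400.4 for Il13. The median over libraries was 126.0, 222.4, 1222, 527.8 and 181.2 CPM for these and 30.71 for Il10, which was 87.24 CPM without immunoglobulin genes. The causes were not tested.

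With each library left out in turn, Ifng ranged from 20.82% to 24.79%, 112.0 to 166.7 CPM and a share of 84.18% to 86.71%. Il17a ranged from 14.04% to 18.54%, 196.8 to 294.5 CPM and 86.93% to 96.32%. Il4 ranged from 71.79% to 78.05%, 956.8 to 2507 CPM and 84.98% to 91.29%. Il5 ranged from 26.61% to 35.64%, 512.6 to 793.9 CPM and 94.79% to 97.55%. Il13 ranged from 41.03% to 55.56%, 177.6 to 1110 CPM and 89.76% to 93.78%. Il10 ranged from 32% to 45.95%, 42.06 to 59.09 CPM and 1.47% to 2.082%. Gates under 30 cells were not ranked, so mast cell-like cells led Il4 without library 2, with 27 basophil-like cells left.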

Other observations

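Stem and progenitor-like cells with Il4 and those with Il10 differed in the few genes given here. Of 399 such cells 16 had Il4, and Ms4a2, a chain of the IgE receptor and a marker of the basophil gate, was found in 56.3% of them and 4.96% of the rest. Il1rl1 was found in 68.8% and 10.4%, and Cpa3, a marker of the mast cell gate, in 62.5% and 29.8%. Gata2, which marks both the basophil gate and the stem and progenitor gate, was found in 100% and 64.8%. The median depths were 20287.5 and 19005 UMIs. Whether these 16 cells are progenitors was not tested. Among the 36 cells with Il10, Ms4a2 was found in 0 cells, while Areg was found in 38.9% against 9.09% and Il1r1 in 69.4% against 38.8%. The cells with Il10 were the deeper ones, at a median of 22894 against 18644 UMIs. No share over all genes is given for these cells, and the values carry no test.

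In B lineage-like cells, 67 of 5675 had a UMI of Ifng and 60 of these held 1. Ms4a1, the CD20 gene of mature B cells, was found in 76.1% of the 67 and 47.7% of the others, and Rag1 and Igll1, genes of precursors, in 13.4% against 36.8% and 1.49% against 15.1%. No depths, library counts or share over all genes are given for this comparison of a few genes. Its values carry no test, and whether Ifng marks mature B cells was not tested. Among ILC2-like cells, Crlf2, a chain of the receptor for the cytokine TSLP, was found in 52.4% of Il5-positive and 18.8% of Il5-negative cells, higher in 6 of 6 libraries, where the positive cells were the deeper ones. Of the 12 listed receptors for inducing signals, 8 were more frequent in the Il5-positive cells, where 83.5% of 7292 genes were so. Icos was lower in them, with 73.8% against 81.25%, as was Il7r, with 88.1% against 92.7%. The Crlf2 difference was not tested.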
